A study of Homo sapiens with 24 samples.

Results

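The 10 genes described here encode transcription factors of surface epithelium: SOX9 and SOX15, the Krüppel-like factors KLF4 and KLF5, the ETS factor ELF3, the zinc finger protein OVOL1, the Grainyhead-like factors GRHL1, GRHL2 and GRHL3, and the p53 relative TP63. They were taken by symbol from a table of 58381 gene IDs, and all 10 were found and passed the filter on low values. Their levels were read in 24 RNA libraries of HaCaT, an immortalised, non-malignant human keratinocyte line. The list was drawn up with results of these data known. SOX9 had been singled out for its response to arsenic in the vector clones and for the difference of that response between weeks, and ELF3 for the difference of its week 12 arsenic response between constructs, so those values are given below as descriptions with no test.

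Each construct, an empty vector or hsa-miR-186, was carried by 3 clonal lines. Each clone was kept without or with 100 nM inorganic arsenic (iAs), and RNA was taken at weeks 12 and 29. This makes 8 groups of 3 libraries: vector clones at 0 nM and at 100 nM and miR-186 clones at 0 nM and at 100 nM, each at week 12 and at week 29. All groups share the HaCaT background and the transduction, and a clone carries whatever sets it apart from its sister clones, which limits each group as a model of its construct. The labels call the libraries independent biological triplicates, but which clone a replicate number stands for is not said.

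In stratified epidermis these factors act at successive stages. TP63, mostly as its ΔN isoform, maintains the basal proliferative layer, SOX9 is known for hair follicle stem cells and for its expression in skin tumours, and KLF5 acts in proliferating basal cells. KLF4, GRHL3, OVOL1 and ELF3 act as cells leave the basal layer and build the barrier, KLF4 and GRHL3 being needed for it in mice, while GRHL2 and OVOL1 maintain epithelial junctions and repress mesenchymal genes. miR-186 is a microRNA, which pairs through its seed with sites in the 3′ UTRs of messenger RNAs.

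Levels are FPKM, fragments scaled by transcript length and by the library's mapped fragments, so that levels of different genes can be set side by side. Changes are log2 changes ± standard error (SE) of FPKM + 0.5, and the added constant makes changes of low genes look smaller. A gene was called where limma's Benjamini-Hochberg adjusted p over all 14228 genes tested was under 0.05. A library's FPKM summed to between 712797 and 905683, and it held 13803 to 14588 genes at 0.5 FPKM or more. Read counts were not used here, so absolute depth is unknown. Keratinocyte markers were present in every library, with KRT5 at 359 to 1866 FPKM and CDH1 at 167 to 314 FPKM. Of markers of other cell types, 3 of 6 for fibroblasts, 3 of 5 for melanocytes, 3 of 4 for immune cells and 2 of 3 for endothelium stayed under 1 FPKM in every library, with the melanocyte enzyme TYR listed at 0 throughout and COL1A2, PDGFRA, PTPRC and PECAM1 at 0.208 FPKM or less. Others were present: CDH5 ran from 3.67 to 20.6 FPKM, MITF from 1.94 to 9.57 FPKM, CD68 from 0.853 to 7.25 FPKM and LUM from 0.377 to 17.2 FPKM, and DCN reached 78.0 FPKM, PMEL 2.31 FPKM and COL1A1 3.53 FPKM. The summed level was 1.75 to 95.6 FPKM for fibroblasts, 2.94 to 11.2 FPKM for melanocytes, 1.13 to 7.48 FPKM for immune cells and 4.04 to 20.9 FPKM for endothelium.

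ELF3 had the highest level of the 10 genes, with a median of 338 FPKM over the 24 libraries, at the 98.3rd percentile of all genes tested. KLF5 (123 FPKM), KLF4 (97.6 FPKM) and TP63 (70.7 FPKM) followed. GRHL2 (35.3 FPKM), SOX15 (20.6 FPKM), SOX9 (11.0 FPKM), GRHL3 (8.28 FPKM), OVOL1 (5.15 FPKM) and GRHL1 (3.45 FPKM) were lower. The ranges of neighbours in this order overlapped over the 24 libraries, except that the lowest TP63 library (49.2 FPKM) lay above the highest GRHL2 library (46.7 FPKM). KLF4 varied most between groups, its highest group mean being 5.00 times the lowest, followed by OVOL1 (4.72 times) and SOX9 (4.26 times). TP63 varied least, at 1.24 times, and its libraries ran from 49.2 to 88.6 FPKM.

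**Figure D1:**
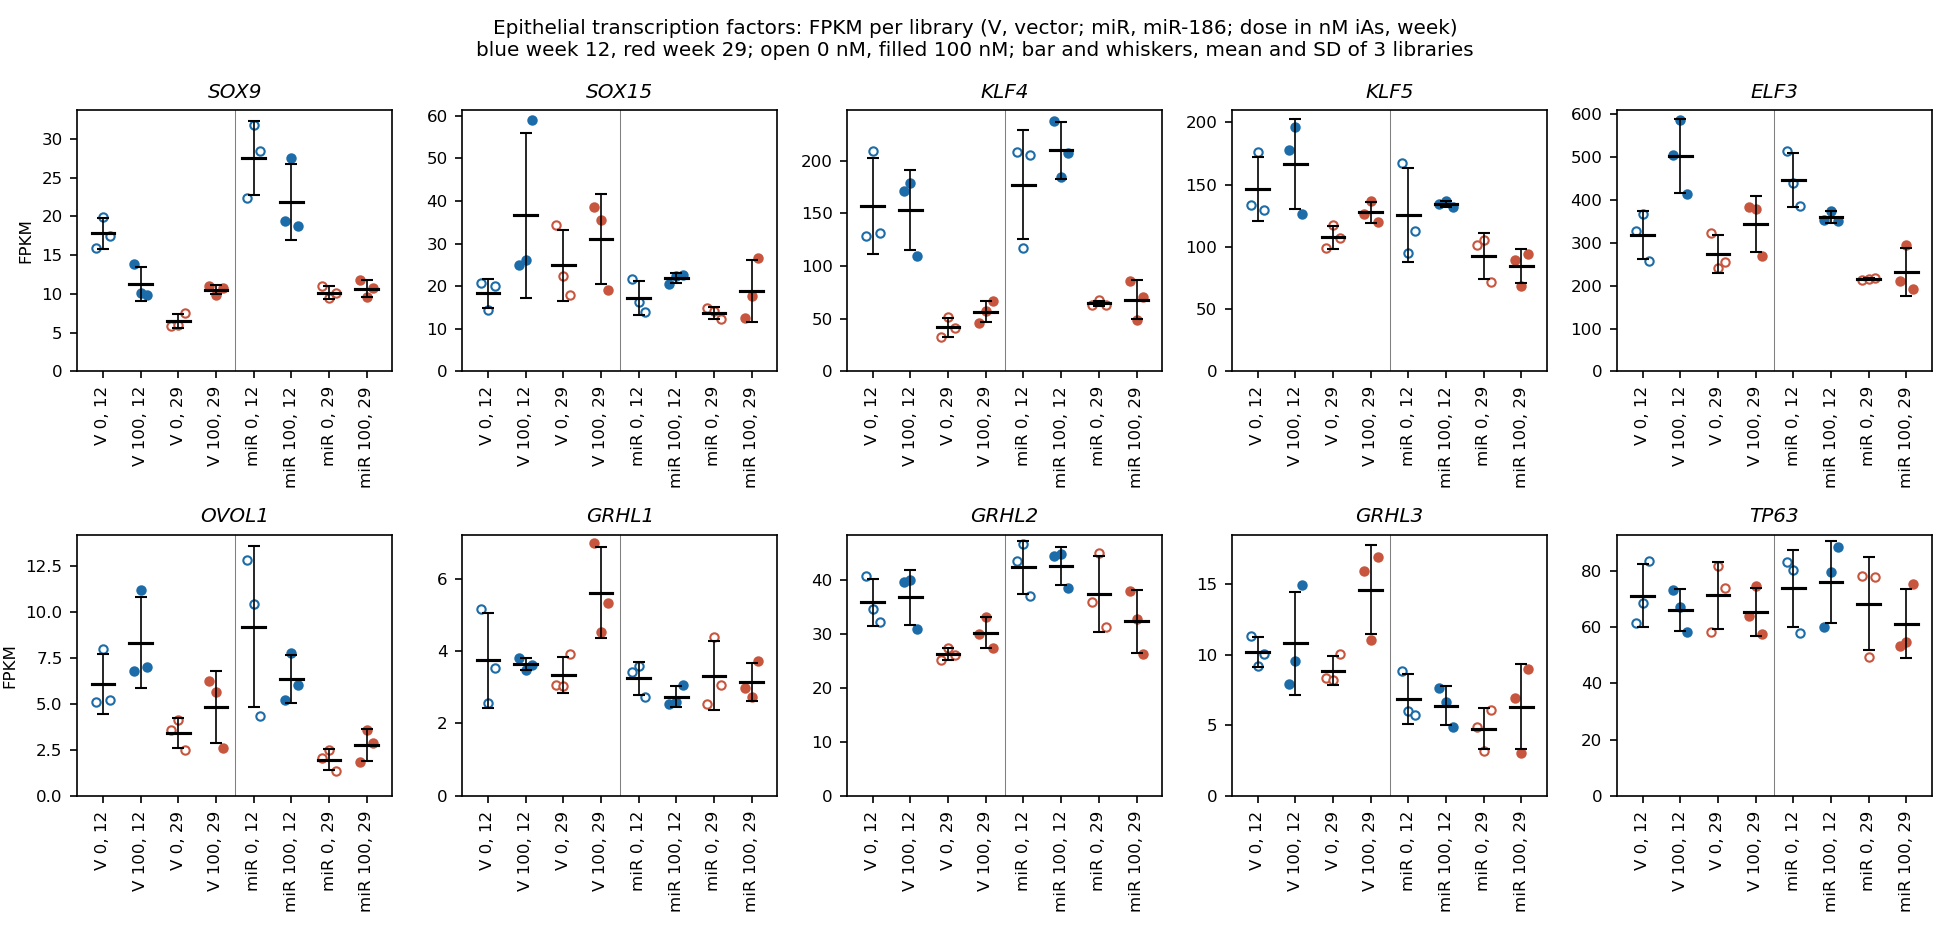
FPKM of the 10 transcription factor genes in each of the 24 libraries (points), by construct (V, vector; miR, miR-186), iAs dose in nM and week, with the mean and SD of 3 libraries per group. All 12 KLF4 values at week 29 (33.0 to 85.9 FPKM) lie under all 12 at week 12 (109 to 238 FPKM), while TP63 stays between 49.2 and 88.6 FPKM.

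The comparison of week 29 with week 12 held most of the calls. KLF4 fell in all 4 construct and dose combinations, SOX9 and OVOL1 at both doses of the miR-186 clones, and KLF5 in the miR-186 clones at 100 nM. None of the 10 genes was called higher. SOX9 in vector clones at 0 nM and ELF3 at both doses of the miR-186 clones were also past the threshold, but their libraries include some of those that had singled these genes out, so they are described with no p and nothing is read from them. The 4 week comparisons have no library in common, but both doses of a construct use the same clones, so they are not separate evidence. Week and the time of RNA isolation cannot be told apart, and in bulk RNA fewer cells expressing a gene cannot be told apart from less RNA per cell.

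KLF4 (chromosome 9, 107484852 to 107490482, minus strand) opens the differentiation programme and represses basal genes. In vector clones without iAs its 3 week 12 libraries held 129, 209 and 132 FPKM, and its week 29 libraries 33.0, 51.3 and 41.4 FPKM. With 100 nM iAs the values were 171, 179 and 109 FPKM in week 12 and 46.3, 56.9 and 66.5 FPKM in week 29. Week 29 was thus below week 12 at both doses with no overlap, as it was in the other construct. In the miR-186 clones without iAs the week 12 libraries held 208, 117 and 206 FPKM, and the week 29 libraries 62.8, 67.4 and 63.3 FPKM. With iAs the values were 238, 184 and 207 FPKM, then 85.9, 48.5 and 70.4 FPKM. No week 29 library of either construct or dose reached the lowest week 12 library: over 12 libraries each, the median was 182 FPKM at week 12 and 59.9 FPKM at week 29. Such a full separation downwards was seen in 0.295% of all genes tested (42 of 14228), and KLF4 was the only one of the 10 with it. Upwards it was seen in 0.0562% of genes and in none of the 10. The 12 libraries of a week come from the same clones at both doses, so they are not 12 separate replicates.

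The log2 changes of KLF4 between weeks were −1.88 ± 0.26 in vector clones at 0 nM (adjusted p = 0.000474), −1.41 ± 0.26 in vector clones at 100 nM (adjusted p = 0.0199), −1.40 ± 0.26 in miR-186 clones at 0 nM (adjusted p = 0.00661) and −1.64 ± 0.26 in miR-186 clones at 100 nM (adjusted p = 0.00172). Ordered from the largest fall, these were ranks 39, 61, 204 and 84 of 14228 genes. The call in vector clones at 100 nM was the weakest. There, leaving out replicate 1 or 2 of week 12, or replicate 1 or 3 of week 29, gave adjusted p = 0.153, 0.164, 0.150 and 0.0570. In miR-186 clones at 0 nM the adjusted p was 0.0548 without replicate 1 of week 12.

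SOX9 (chromosome 17, 72121020 to 72126420, plus strand) had its highest levels in the miR-186 clones at week 12. There the libraries held 22.4, 31.8 and 28.5 FPKM without iAs and 19.3, 27.5 and 18.7 FPKM with 100 nM. By week 29 the same clones held 11.0, 9.41 and 10.1 FPKM without iAs and 11.8, 9.57 and 10.8 FPKM with it. The weeks did not overlap at either dose. The log2 change was −1.38 ± 0.17 at 0 nM (adjusted p = 0.000166) and −0.98 ± 0.17 at 100 nM (adjusted p = 0.00384). These libraries were not among those for which SOX9 had been singled out.

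In vector clones without iAs SOX9 went from 15.99, 19.9 and 17.5 FPKM in week 12 to 5.89, 5.99 and 7.52 FPKM in week 29, again with no overlap. This was a log2 change of −1.40 ± 0.17. With 100 nM iAs the vector clones held 13.8, 10.2 and 9.93 FPKM, then 11.0, 9.85 and 10.8 FPKM, and these ranges overlapped. The log2 change there was −0.08. Both vector comparisons use the libraries that singled SOX9 out, since the difference of its arsenic response between weeks is the difference of these 2 changes, and nothing is read from either of them.

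ELF3 (chromosome 1, 202007945 to 202017188, plus strand) encodes an epithelium-specific ETS factor that activates genes of terminal differentiation. In miR-186 clones without iAs the week 12 libraries held 513, 439 and 386 FPKM, and the week 29 libraries 213, 215 and 218 FPKM. With 100 nM the values were 353, 375 and 350 FPKM, then 210, 295 and 191 FPKM. Week 29 lay below week 12 at both doses without overlap. The log2 changes were −1.04 ± 0.19 and −0.66 ± 0.19. In vector clones at 100 nM the weeks did not overlap either, with a change of −0.55 ± 0.19 that was not called, and at 0 nM they overlapped. All the week 12 libraries of these comparisons are among those that singled ELF3 out, so its week changes are a description. ELF3 overlaps ELF3-AS1 on the other strand (10.1 to 20.1 FPKM), and with the strand setting of the counting not given, the 2 genes may share reads.

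OVOL1 (chromosome 11, 65787022 to 65797219, plus strand) encodes a repressor that takes part in the exit of keratinocytes from the cell cycle. In miR-186 clones at 0 nM the week 12 libraries held 12.9, 10.4 and 4.34 FPKM, and the week 29 libraries 2.04, 2.48 and 1.34 FPKM. At 100 nM it went from 5.22, 7.78 and 6.01 FPKM to 1.82, 3.56 and 2.88 FPKM. Week 29 was lower without overlap at both doses, and replicate 3 of week 12 without iAs stood far under the other two of its group. The log2 changes were −1.89 ± 0.36 (adjusted p = 0.00778) and −1.09 ± 0.36 (adjusted p = 0.0499). In vector clones week 29 was also lower without overlap at both doses, by −0.75 ± 0.36 and −0.78 ± 0.36, and neither was called (adjusted p = 0.514 and 0.326). OVOL1 shares its locus with the antisense gene AP001266.1 (1.20 to 10.0 FPKM). The strand setting of the counting is not given, so the 2 genes may share reads.

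KLF5 (chromosome 13, 73054976 to 73077542, plus strand) was called between weeks in miR-186 clones at 100 nM, where it went from 134, 137 and 132 FPKM to 89.7, 69.0 and 94.7 FPKM without overlap. The log2 change was −0.68 ± 0.20 (limma adjusted p = 0.0370). In vector clones at 0 nM it went from 134, 176 and 130 FPKM to 99.2, 118 and 107 FPKM, also without overlap (−0.43 ± 0.20, adjusted p = 0.515). GRHL2 was lower at week 29 without overlap in vector clones at 0 nM (−0.44 ± 0.16, adjusted p = 0.316) and in miR-186 clones at 100 nM (−0.40 ± 0.16, adjusted p = 0.0888), and was called in neither. GRHL1 was the only one of the 10 to stand higher at week 29 without overlap, in vector clones at 100 nM (0.54 ± 0.22, adjusted p = 0.284). TP63, GRHL3 and SOX15 overlapped between weeks in every comparison and were not called.

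By comparison, the week calls were 2 of 10 in vector clones at 0 nM, both lower and 1 of them SOX9, where 0.822% of all genes tested were called lower. They were 1 of 10 in vector clones at 100 nM (background 0.162%), 4 of 10 in miR-186 clones at 0 nM (background 1.33%) and 5 of 10 in miR-186 clones at 100 nM (background 5.07%), 1 of them ELF3 at each dose. The backgrounds rested on few libraries: the genes called in either direction numbered 129, 26, 412 and 1732 in the same order, and between 43 and 112, 7 and 128, 60 and 916, and 68 and 2197 when 1 library was left out. The median log2 change of the 10 was −0.32, −0.23, −0.46 and −0.53, beside 0.00, −0.02, 0.06 and 0.02 over all genes tested. Of the 10, 5, 3, 4 and 6 were lower without overlap in the same order, beside 10.3%, 8%, 14.2% and 14.9% of all genes, and 1 was higher in vector clones at 100 nM, beside 8.88%. These counts include SOX9 in vector clones at 0 nM and ELF3 in the remaining comparisons, and the medians include both genes. Nothing is read from the part that these values have in them. With the replicate number as a block, the calls over all genes went from 129 to 229 in vector clones at 0 nM, with the same number of calls among the 10, and from 1732 to 3194 in miR-186 clones at 100 nM, where GRHL2 was then called too (adjusted p = 0.0237).

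The calls of OVOL1 and KLF5 depended on few libraries. In miR-186 clones at 0 nM, leaving out replicate 1 of week 12 gave OVOL1 an adjusted p of 0.0705, and it was also lost without replicate 3 of week 29 (adjusted p = 0.0523). At 100 nM, KLF5 was lost without any of the 6 libraries (adjusted p = 0.0571 to 0.153). ELF3 was no longer past the threshold at 0 nM without replicate 1 of week 12, and at 100 nM without replicate 1 or 2 of week 12 or replicate 1 or 3 of week 29. OVOL1 was lost without replicate 1, 2 or 3 of week 12 or replicate 1 or 3 of week 29 (adjusted p = 0.0589, 0.224, 0.0744, 0.197 and 0.0958). SOX9 kept its calls in miR-186 clones without any 1 of the libraries compared. Fitted on only the groups compared, which leaves fewer residual degrees of freedom, KLF4 in vector clones at 100 nM (adjusted p = 0.296), OVOL1 in miR-186 clones at 0 nM (0.0656) and SOX9, KLF5 and OVOL1 in miR-186 clones at 100 nM (0.0794, 0.0955 and 0.0970) were lost. With no filter on low genes, KLF4 in vector clones at 100 nM (0.0537) and KLF5 and OVOL1 in miR-186 clones at 100 nM (0.0772 and 0.105) were lost, the last also with a pseudocount of 1 (0.0516).

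Some library properties moved with week. The slope of log2 level on gene GC content, per 10 percentage points and relative to the mean over the libraries, was 0.05 at week 12 and −0.30 at week 29 in miR-186 clones without iAs, and 0.25 and −0.16 with iAs. In vector clones it was −0.16 and −0.05 without iAs and 0.32 and 0.05 with it. GC content is 55.1% for KLF4, 56.9% for ELF3, 58.7% for OVOL1, 51.0% for SOX9 and 44.3% for KLF5. After a correction for gene GC content, OVOL1 was no longer called in miR-186 clones at 100 nM (adjusted p = 0.164), where its log2 change went from −1.09 to −0.66. ELF3 was not past the threshold there either, its change going from −0.66 to −0.33. KLF4 was no longer called in vector clones at 100 nM (adjusted p = 0.109), with a change that went from −1.41 to −1.25. The other week calls of the 10 stayed past the threshold. The summed level of 7 keratinocyte markers was 2558 to 5076 FPKM at week 12 and 1314 to 2022 FPKM at week 29 in miR-186 clones without iAs, with no overlap. In vector clones at 0 nM the sum of 3 endothelial markers, nearly all CDH5, was 8.67 to 10.9 FPKM at week 12 and 11.7 to 16.2 FPKM at week 29. In vector clones at 100 nM the sum of 6 fibroblast markers was 4.09 to 8.27 FPKM and 2.09 to 3.68 FPKM. The part of these sums in the week changes was not tested.

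**Figure D2:**
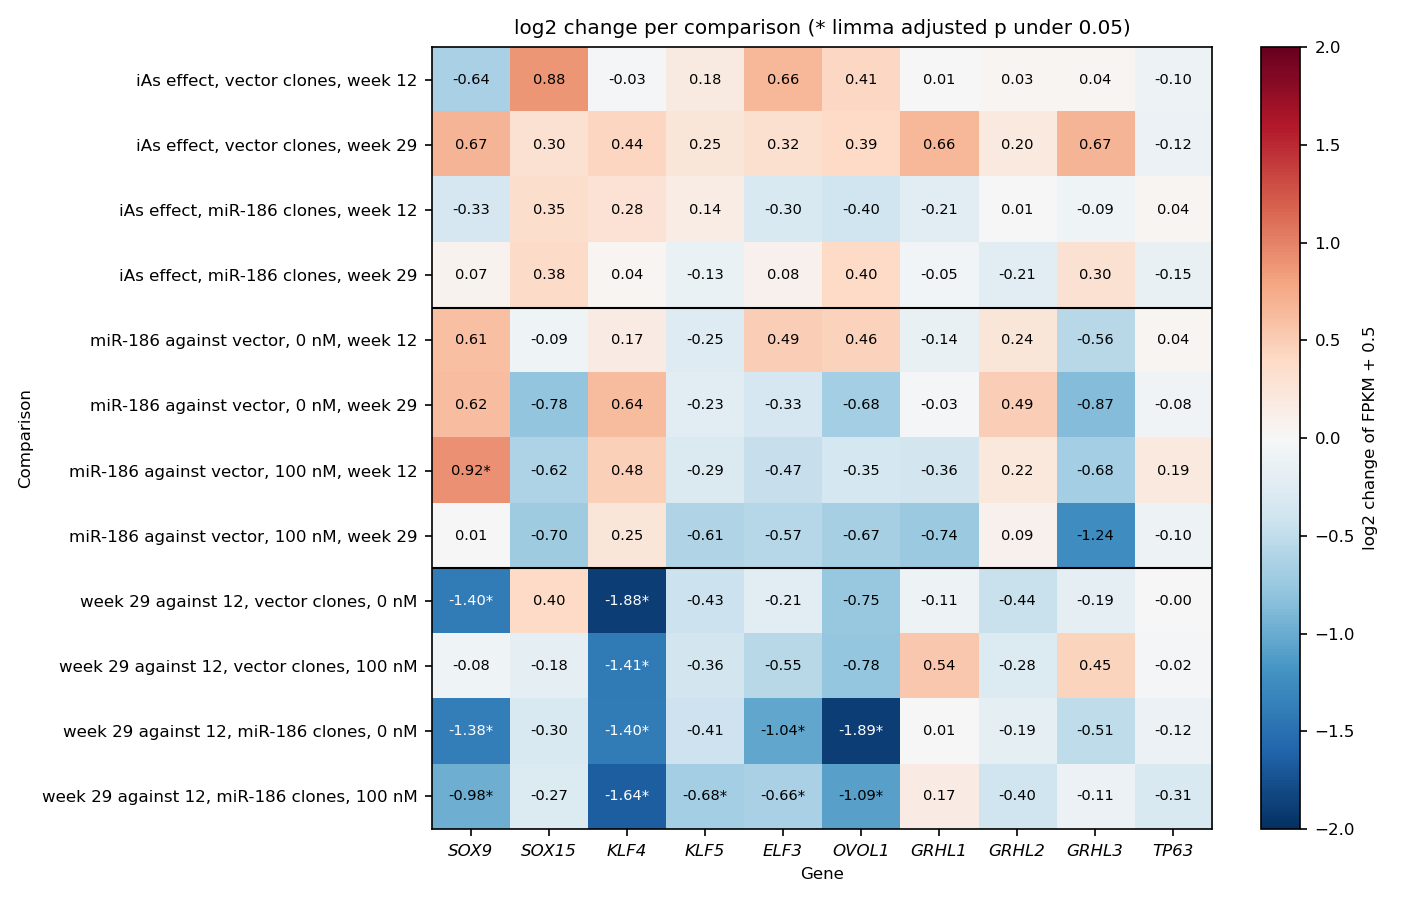
log2 change on log2(FPKM + 0.5) of each gene (columns) in the 12 comparisons of 2 groups (rows), with an asterisk where limma's adjusted p was under 0.05. Asterisks lie in the 4 week rows, all of them below 0 and in each of them for KLF4, and in the row of constructs at 100 nM and week 12 for SOX9 (0.92). Those of SOX9 in vector clones at 0 nM and between constructs, and those of ELF3, involve libraries that singled these genes out. They are descriptions, and nothing is read from them.

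Of the 10 genes, 6 had entries in the RefSeq promoter table (GRCh38.p14), which holds 250 bases before to 50 bases after a start site: KLF4, KLF5, ELF3, GRHL1, GRHL3 and TP63. KLF4 and ELF3 are shown because both were lower at week 29 without overlap in the miR-186 clones and they differ in core promoter letters. Capitals mark matches, on either strand, to the GC box of KLF and SP factors, the CACCC box, the TATA box, the CCAAT box and the Grainyhead site.
KLF4, chr9:107489720-107490019, minus strand: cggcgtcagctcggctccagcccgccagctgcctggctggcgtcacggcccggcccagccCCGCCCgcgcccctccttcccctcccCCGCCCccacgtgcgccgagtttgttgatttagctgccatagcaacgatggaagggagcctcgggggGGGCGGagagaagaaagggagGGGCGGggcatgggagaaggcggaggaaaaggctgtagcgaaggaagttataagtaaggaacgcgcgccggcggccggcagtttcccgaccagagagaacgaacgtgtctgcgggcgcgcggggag
ELF3, chr1:202010337-202010636, plus strand: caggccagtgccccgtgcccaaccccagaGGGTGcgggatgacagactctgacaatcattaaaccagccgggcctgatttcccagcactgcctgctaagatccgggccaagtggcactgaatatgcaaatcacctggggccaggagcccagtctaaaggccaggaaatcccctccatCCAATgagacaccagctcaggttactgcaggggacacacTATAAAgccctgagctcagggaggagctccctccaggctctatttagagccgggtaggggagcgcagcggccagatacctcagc

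The KLF4 window is 69.0% G and C and holds 4 GC boxes (GGGCGG), a motif that 44.9% of all 34796 promoter windows hold. It lacks the exact letters TATAAA, the only ones searched for as a TATA box, but holds the letters tataag, which the search did not count. The ELF3 window is 59.0% G and C and holds a TATA box (TATAAA) at −34 from the start site, as 11.6% of all windows do. It also holds the letters CCAAT at −73 (34.6% of windows) and a CACCC box at −221 (59.8%), with no GC box. The Grainyhead site, AACCNGTT, which 1.72% of all windows hold, was found in neither. The motifs do not overlap each other in these windows, and a match describes letters only.

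Between constructs, none of the 10 genes other than SOX9 was called by limma in any of the 4 comparisons. SOX9 was past the threshold at week 12 with 100 nM iAs, where it was higher in the miR-186 clones. The vector libraries of the SOX9 comparisons are those that had singled SOX9 out, so its construct differences are descriptions with no p, and nothing is read from that call. SOX9 stood higher in the miR-186 clones in 3 of the comparisons without overlap, GRHL3 lower in all 4 without overlap, and KLF5, GRHL1 and SOX15 lower in all 4 on average. A construct here is also a set of 3 clones, and the 2 cannot be told apart.

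The SOX9 levels at 100 nM and week 12 were 19.3, 27.5 and 18.7 FPKM in miR-186 clones and 13.8, 10.2 and 9.93 FPKM in vector clones. The lowest miR-186 library thus lay above the highest vector library, and the log2 change was 0.92 ± 0.17. In that comparison 0.921% of all genes tested were called higher. At 0 nM the differences were 0.61 ± 0.17 at week 12 and 0.62 ± 0.17 at week 29, again without overlap. At 100 nM and week 29 the difference was 0.01 and the libraries overlapped.

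GRHL3 (chromosome 1, 24319322 to 24364482, plus strand) encodes a factor of the barrier and of wound closure. Its 12 vector libraries ran from 7.90 to 16.9 FPKM with a median of 10.0 FPKM, and its 12 miR-186 libraries from 3.02 to 8.96 FPKM with a median of 6.06 FPKM. Within each dose and week the highest miR-186 library lay below the lowest vector library. At 100 nM and week 29 the vector clones stood at 15.9, 11.0 and 16.9 FPKM and the miR-186 clones at 6.93, 3.02 and 8.96 FPKM. The log2 changes were −0.56 ± 0.31 and −0.87 ± 0.31 at 0 nM, and −0.68 ± 0.31 and −1.24 ± 0.31 at 100 nM, in week order. None was called (adjusted p = 0.319, 0.123, 0.308 and 0.0554). The last passed without replicate 3 of the miR-186 clones (adjusted p = 0.0176) and in fits with the replicate number as a block. Such a block takes differences between replicate numbers out of the spread. If the numbers are clones, a comparison of constructs needs that spread, so nothing is read from block fits between constructs. In the 4 comparisons 15.1%, 12.1%, 9.85% and 6.80% of all genes tested were lower without overlap, beside 1, 4, 4 and 3 of the 10. The count at 100 nM and week 12 includes ELF3, whose week 12 values singled it out. GRHL3 overlaps STPG1 on the other strand (2.59 to 9.09 FPKM), with which it may share reads, as the strand setting of the counting is not given.

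Other members did not overlap between constructs in some comparisons and were not called. The ELF3 values at week 12 are part of the contrast that singled it out and are a description. At 0 nM and week 12, ELF3 was higher (0.49 ± 0.19), as SOX9 was, where 12.5% of all genes were higher without overlap. At 0 nM and week 29, KLF4 (0.64 ± 0.26) and GRHL2 (0.49 ± 0.16) were higher and ELF3 (−0.33 ± 0.19), OVOL1 (−0.68 ± 0.36) and SOX15 (−0.78 ± 0.33) lower. Of all genes, 15.9% were higher and 12.1% lower there without overlap. After the correction for GC content the 3 lower values were −0.12 for ELF3, −0.40 for OVOL1 and −0.35 for SOX15. GRHL2 was called there with the replicate number as a block (adjusted p = 0.0222). In that fit the calls over all genes went from 407 to 948, and the clones of the constructs differ whatever their numbers. The block takes differences between replicate numbers, which may be clones, out of the spread, so nothing is read from that call.

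At 100 nM and week 12, KLF4 (0.48 ± 0.26) was higher and ELF3 (−0.47 ± 0.19), GRHL1 (−0.36 ± 0.22) and SOX15 (−0.62 ± 0.33) lower, with 8.49% of all genes higher and 9.85% lower without overlap. The SOX15 value rested on 1 vector library and was −0.22 without replicate 3 of that group. At 100 nM and week 29, KLF5 (−0.61 ± 0.20) and GRHL1 (−0.74 ± 0.22) were lower. The adjusted p of these values ran above the threshold, the smallest being 0.0961 for GRHL2. KLF4 stood higher in miR-186 clones in 4 of 4 comparisons on average. Over all genes tested, 3.44%, 2.86%, 2.02% and 0.864% were called in either direction at 0 nM and weeks 12 and 29 and at 100 nM and weeks 12 and 29.

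The longest annotated 3′ UTR of each gene was searched for ATTCTTT, the complement of AAAGAAU, the seed of miR-186-5p. SOX9 (1 match), KLF5 (2 matches) and TP63 (2 matches) held it and the other 7 genes did not. Of 11974 genes tested with an annotated 3′ UTR, 27.4% held it. The sites are shown because they are the letters through which the construct could pair with these messengers, with the match in capitals and 7 bases on each side.
SOX9, match at base 1164 of a 3′ UTR of 2033 bases: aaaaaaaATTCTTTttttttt
KLF5, match at base 597 of 1656: ttttaggATTCTTTtggggaa
TP63, match at base 553 of 2777: tgtacagATTCTTTcagttct

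The directions of the genes with a match are given as a description. KLF5 stood lower in miR-186 clones in 4 of 4 comparisons (−0.61 to −0.23) and was called in none. SOX9 stood higher in 4 of 4 on average (0.01 to 0.92), from which nothing is read, as stated above. TP63 was above 0 in 2 and below 0 in 2 (−0.10 to 0.19). A match is a description and no evidence of pairing.

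Under iAs, none of the 10 genes was called by limma in any of the 4 comparisons, at either week in either construct. Over all genes tested 1.38% were called in vector clones at week 12 and 0% in each of the other comparisons, with 4168, 555, 1558 and 312 genes at an unadjusted p under 0.05. Of the 10, 3 had an unadjusted p under 0.05 in vector clones at each week and 0 in miR-186 clones at either week. Nothing is read from these counts for SOX9 and ELF3, which this contrast had singled out.

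As a description, SOX9 in vector clones at week 12 held 15.99, 19.9 and 17.5 FPKM without iAs and 13.8, 10.2 and 9.93 FPKM with it, a log2 change of −0.64. At week 29 it held 5.89, 5.99 and 7.52 FPKM without and 11.0, 9.85 and 10.8 FPKM with iAs, a log2 change of 0.67. The groups did not overlap at either week, and the sign differed. ELF3 in vector clones at week 12 stood at 327, 368 and 258 FPKM without and 504, 586 and 415 FPKM with iAs (0.66), and in miR-186 clones at 513, 439 and 386 FPKM without and 353, 375 and 350 FPKM with iAs (−0.30). Without overlap, 19.5% of all genes were higher and 17.7% lower in vector clones at week 12, and 8.16% lower in miR-186 clones at that week. In vector clones at week 29, 5.56% were higher without overlap.

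SOX15 (chromosome 17, 7588178 to 7590170, minus strand), a SOX factor of the epidermis, stood at 20.7, 14.4 and 20.0 FPKM without and 24.9, 26.1 and 58.9 FPKM with iAs in vector clones at week 12. The groups did not overlap, and 1 library with iAs stood far above the rest (0.88 ± 0.33, not called, and 0.48 without that library), in a comparison in which 19.5% of all genes tested were higher without overlap. The mean slope on GC content was −0.16 without and 0.32 with iAs in these libraries, SOX15 has the highest GC content of the 10 (63.4%), and after the correction its change was 0.08. SOX15 lies opposite MPDU1 (52.7 to 96.7 FPKM), and as the strand setting of the counting is not given, the 2 genes may share reads. For ELF3 the change went from 0.66 to 0.25, and for SOX9 it was −0.64 before and −0.66 after.

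In vector clones at week 29, KLF5 (0.25 ± 0.20), GRHL1 (0.66 ± 0.22), GRHL2 (0.20 ± 0.16) and GRHL3 (0.67 ± 0.31) were higher with iAs without overlap, where 5.56% of all genes tested were. GRHL1 stood at 3.05, 3.03 and 3.92 FPKM without and 6.98, 4.53 and 5.33 FPKM with iAs, its highest group in the series. In miR-186 clones the members with the smallest p were SOX9 (−0.33 ± 0.17) and ELF3 at week 12 and GRHL2 (−0.21 ± 0.16) and SOX15 (0.38 ± 0.33) at week 29, none of them called.

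Whether a response differed between groups was asked in 6 further comparisons: the iAs effect between weeks in each construct and between constructs at each week, and the construct effect between weeks at each dose. In each of them limma called 0% of all genes, with 272 to 1910 genes at an unadjusted p under 0.05, so a difference between responses was shown for none of the 10. The values of SOX9 in vector clones (1.32) and of ELF3 between constructs at week 12 (−0.96) are those that singled these genes out. Beside them, GRHL1 had an iAs effect 0.65 ± 0.31 higher at week 29 than at week 12 in vector clones, and OVOL1 one of 0.80 ± 0.50 in miR-186 clones. Between constructs the iAs effect differed by −0.81 ± 0.50 for OVOL1 at week 12 and by −0.71 ± 0.31 for GRHL1 at week 29. The construct effect at week 29 minus that at week 12 was −1.14 ± 0.50 for OVOL1 at 0 nM and −0.56 ± 0.44 for GRHL3 at 100 nM. None of these values of GRHL1, OVOL1 and GRHL3 passed. The same difference was −0.82 ± 0.26 for ELF3 at 0 nM and −0.90 ± 0.24 for SOX9 at 100 nM. Both involve libraries that singled these genes out, so they are descriptions and nothing is read from them.

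**Figure D3:**
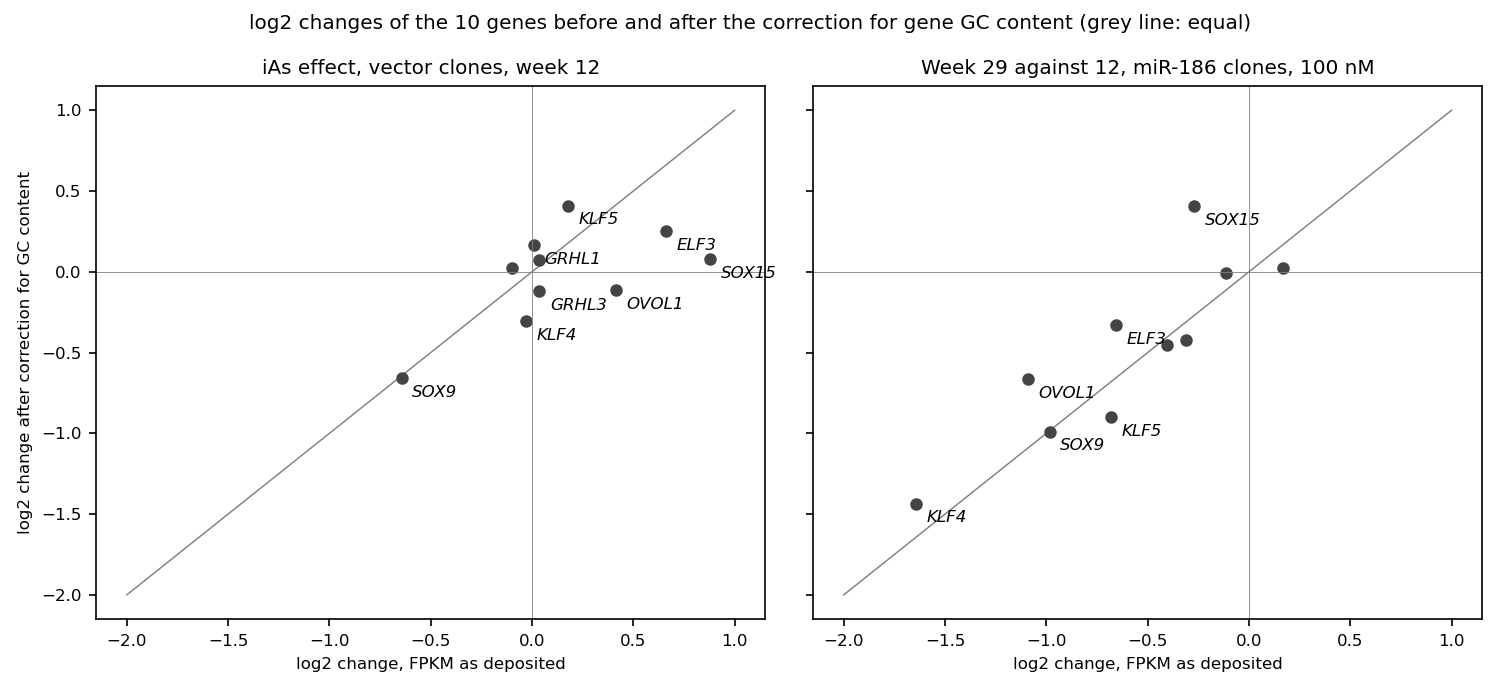
log2 change of the 10 genes before (x) and after (y) the correction for gene GC content, for iAs in vector clones at week 12 and for week 29 against 12 in miR-186 clones at 100 nM; the grey line marks equal values. SOX15 moves from 0.88 to 0.08 in the former, and SOX9 stays near the line in both.

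The other genes of the epidermal programme were read from lists chosen by function, as a setting for the 10. Of 27 other epidermal regulators, 21 passed the filter. Between weeks, 3 were called lower in vector clones at 0 nM, 1 in vector clones at 100 nM, 5 in miR-186 clones at 0 nM and 7 in miR-186 clones at 100 nM, and 0 were called higher. Of all genes tested, 0.822%, 0.162%, 1.33% and 5.07% were called lower in the same order. The medians were −0.37, −0.33, −0.47 and −0.48, beside 0.00, −0.02, 0.06 and 0.02 over all genes tested. KLF6, a Krüppel-like factor induced by growth and stress signals, fell in all 4 (−2.02, −1.62, −1.72 and −1.89, each ± 0.15). The Notch effector HES1 fell in 3 (−1.59, −1.85 and −1.90), the AP-1 subunit FOSL1 in both constructs at 0 nM (−1.21 and −1.37), KLF10 at both doses in miR-186 clones (−1.68 and −1.81) and SOX4 in miR-186 clones at 100 nM (−1.81).

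**Figure D4:**
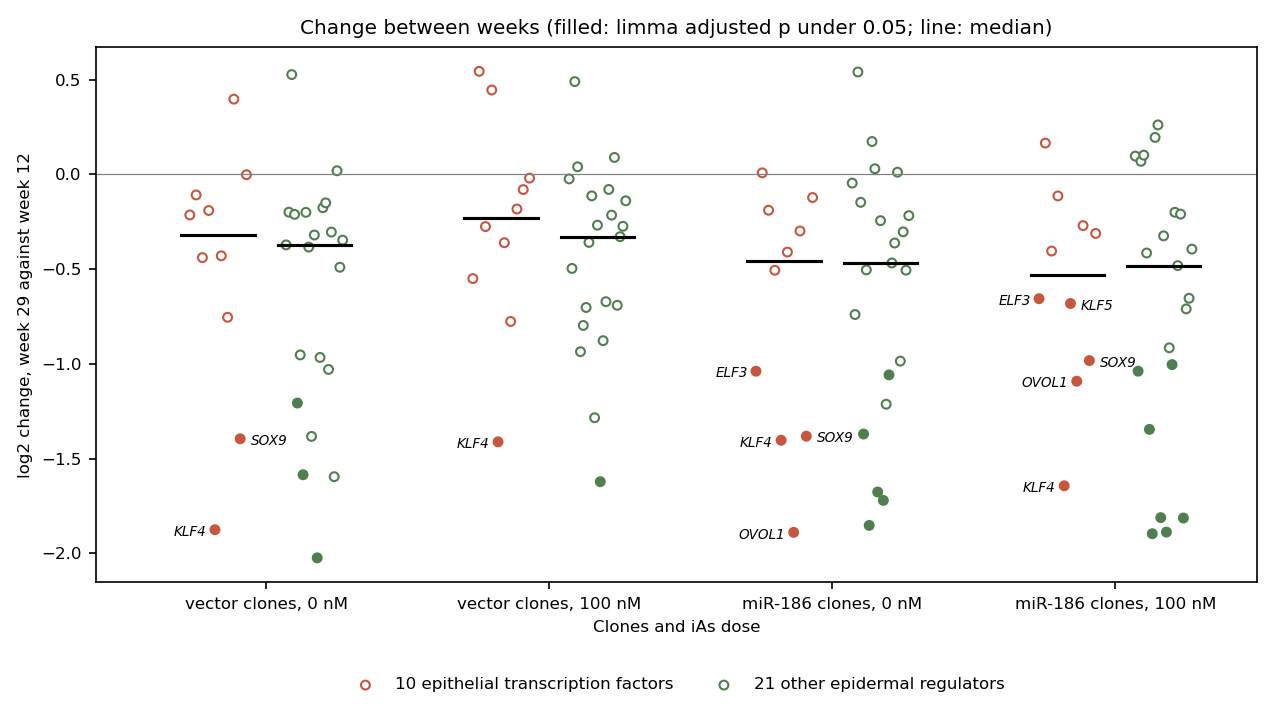
log2 change from week 12 to week 29 of the 10 transcription factor genes (red) and of 21 other epidermal regulators (green), by construct and iAs dose, filled where limma's adjusted p was under 0.05, with a line at the median. All filled points lie below 0, and KLF4 is filled in all 4 columns. The filled points of ELF3, and of SOX9 in vector clones at 0 nM, involve libraries that singled these genes out and are descriptions.

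Known targets of the 10 were read beside all 14228 genes tested, of which 129, 26, 412 and 1732 were called between weeks. These counts are for vector clones at 0 and 100 nM, then miR-186 clones at 0 and 100 nM. The target lists are short, and nothing is read from their number of calls. Of 15 known p63 targets, limma called 0 in either vector comparison or in miR-186 clones at 0 nM, where 1, 1 and 5 had an unadjusted p under 0.05. In miR-186 clones at 100 nM DSG3, a desmosomal cadherin, rose (0.80 ± 0.18) and JAG1, a Notch ligand, fell (−1.08 ± 0.34). Of 17 differentiation genes downstream of KLF4, GRHL3, OVOL1 and ELF3, 11 passed the filter. In miR-186 clones at 100 nM the envelope protein EVPL fell (−1.17 ± 0.38), and no other of them was called between weeks. Of 12 measured adhesion and polarity genes known as targets of GRHL2 and OVOL factors, CLDN4 fell in miR-186 clones at 0 nM (−1.64 ± 0.30) and OCLN rose in miR-186 clones at 100 nM (1.34 ± 0.38). None of the 4 measured mesenchymal genes or the 2 measured SOX9 targets was called by limma between weeks, constructs or doses, with 10 of 48 and 4 of 24 values at an unadjusted p under 0.05.

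Between constructs, 2 or 3 of the 15 p63 targets were called lower in miR-186 clones in each comparison. Of all genes tested, 3.44% and 2.86% were called in either direction at 0 nM (weeks 12 and 29), and 2.02% and 0.864% at 100 nM. The 4 comparisons use the same 3 clones per construct, so they are not separate evidence. TP63 itself was not called in any, and the activity of p63 was not tested. FRAS1, a basement membrane protein, was lower in all 4 (−2.01, −1.41, −2.25 and −1.77, each ± 0.28). KRT5, the basal keratin, was lower at week 29 at both doses (468 against 1165 FPKM at 0 nM, −1.33 ± 0.26). DSG3 was lower in 3 comparisons (−0.94, −0.79 and −0.95), and DST was higher in 2 (0.64 and 0.99). Of the differentiation genes, TGM1, the transglutaminase that cross-links the envelope, was lower at 0 nM and week 29 (17.5 against 48.3 FPKM, −1.43 ± 0.35), as was the envelope precursor SPRR1B (1.31 against 14.4 FPKM, −2.97 ± 0.73). The homeodomain protein HOPX was lower in all 4, and KLF6 was higher at 0 nM and week 29 (0.71 ± 0.15). With iAs, 1 gene of the lists was called, TJP3, higher in vector clones at week 12 (1.51 ± 0.31), and not after the correction for GC content (adjusted p = 0.200).

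The genes whose levels followed each factor most closely were sought among 12855 genes whose mean reached 1 FPKM, by Pearson's r over the 24 libraries on the log2 scale. The libraries share their groups and their GC slopes, so r is a description. SOX9 was closest to the stress-response factor ATF3 (0.89), KLF6 (0.87) and ENC1 (0.85). KLF4 was closest to STARD13-AS (0.94), the cytokine gene IL6 (0.92) and the EGFR feedback inhibitor ERRFI1 (0.92). ELF3 and OVOL1 had each the receptor tyrosine kinase EPHA2 among their closest 3 (0.91 and 0.93), and OVOL1 was the third closest to ELF3 (0.89).

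KLF5 was closest to FGFR3 (0.93), BRF1 (0.91) and ASAP3 (0.91), and GRHL2 to GATA3 (0.91), MAML2 (0.89) and NPIPB4 (0.88). SOX15, the most GC-rich of the 10, was closest to CCDC85C (0.96), ITPK1 (0.95) and RPS6KB2 (0.95). GRHL3 had GAS6-DT (0.82), KRT6A (0.82) and IGSF3 (0.81). The values were lowest for the other two: TP63 was closest to HAS3 (0.73), IRS1 (0.73) and TSPAN9 (0.67), and GRHL1 to KNL1 (0.67).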

How the data were processed

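RNA of 24 HaCaT libraries (8 groups of 3) was sequenced from stranded poly(A) libraries run as a pool, per the labels' protocols. The authors deposited FPKM for 58381 gene IDs, made with STAR 2.6.0c and Cuffdiff 2.2.1 on hg38 (GRCh38), per the submitters' processing notes. Which annotation and strand setting were used, and whether FPKM were scaled further, is not given in the sources used here. Symbols, coordinates, GC content and 3′ UTRs came from GENCODE 29 (58261 IDs matched), and promoters from RefSeq.

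The deposited FPKM were taken to log2(FPKM + 0.5), keeping the 14228 genes whose mean reached 0.5 FPKM. limma 3.58.1 (R 4.3.3) was fitted with an intensity trend and robust moderation to all 8 groups, leaving 16 residual degrees of freedom, and p-values were Benjamini-Hochberg adjusted over all genes in each of 18 comparisons (12 of 2 groups, 6 between effects). The script was tested on simulated data. p-values measure the spread between these libraries only.

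The 10 genes and the lists were chosen with earlier results of these data known. The log2 change and SE of a gene of the 10 is printed where it was called, had one of the smallest p of the 10, or did not overlap between groups; up to 4 genes per other list and comparison may be named, those with the smallest p, and some results are not reported here. SOX9 and ELF3 iAs values are exempt from tests. For the GC correction, each library's log2 values were regressed on gene GC content (natural spline, 5 degrees of freedom) using genes over 1.5 FPKM.

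Replicate numbers were checked as pairs by correlating deviations from group means across genes, which are not independent replicates. Every r passed 0.1 in 4 of the 12 comparisons: iAs in vector clones at week 29, constructs at 0 nM and week 29, weeks in vector clones at 0 nM, and weeks in miR-186 clones at 100 nM (0.341, 0.413 and 0.385). The pairing comes from these data, not from the labels. Alternatives were other pseudocounts, filters, median ratio scaling, fits on only the groups compared, GC correction, replicate blocks and leaving out each library.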

Additional observations from a re-analysis of the deposited data

How the results depend on the processing

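The 62 named changes of the 10 genes were picked from these same data for a call, no overlap or a small p. Several of the alternatives leave the log2 change itself as it was and alter only its spread or the genes tested. That the direction was kept in each of 1064 values under all alternatives run is therefore no separate support. Of these values, 40 lost the threshold and 24 newly passed it. Of 324 counts of called members, 292 were equal to the main count or close to it by ratio, and 32 moved further. The smaller shifts are not all listed. With GC correction and replicate block, GRHL2 was newly called between weeks in vector clones at 0 nM (limma adjusted p = 0.0492). In vector clones at week 12 the iAs count of 0 became 1 with a mean of at least 1 FPKM or median ratio scaling. It became 2 with the replicate block or a random replicate block, the latter a setting chosen after seeing the data. These calls were SOX9 and, with either block, ELF3, which this contrast had singled out, so nothing is read from them. Between constructs at 0 nM and week 12 the count of 0 became 1 with the replicate block or GC correction, and 2 with both. It was 0 to 1 leaving out each replicate. SOX9 was the call wherever that count was 1. At 0 nM and week 29 the count went from 0 to 1 with a pseudocount of 0.1, the replicate block or GC correction. With GC correction and replicate block it was 2. SOX9 was called in these settings except the replicate block alone, where GRHL2 was. At 100 nM and week 12 the count of 1 was SOX9, and it became 0 on only the groups compared. Nothing is read from these SOX9 calls either. At 100 nM and week 29 the count went from 0 to 1 with the replicate block and to 3 with GC correction and replicate block. Leaving out each replicate, it was 0 to 1. Between weeks, the count of 1 in vector clones at 100 nM became 0 with no filter, only the groups compared or GC correction, and 0 to 1 leaving out each replicate. The 4 in miR-186 clones at 0 nM became 1 to 4 leaving out each replicate. The 5 in miR-186 clones at 100 nM became 2 with no filter, 1 on only the groups compared, 3 with GC correction, and 2 to 4 leaving out each replicate. Fits on only the groups compared have fewer residual degrees of freedom, and no filter tests more genes; the cause of the other shifts was not tested. Between constructs at 100 nM and week 29, GRHL3 passed with the replicate block (adjusted p = 0.0211) and with GC correction and replicate block (adjusted p = 0.0224), although the numbers were not shown to pair its samples. For the reason given above, nothing is read from block fits between constructs. The replicate block changed no call of the 10 other than those printed here or above.

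Counts over all genes moved further. For iAs in vector clones at week 12, 197 genes became 0 with no filter, 1680 with the random replicate block and 0 to 1 leaving out each replicate. On only the groups compared, the 4 construct counts of 490, 407, 287 and 123 became 107, 153, 24 and 13, and with GC correction and replicate block 1465, 1160, 1151 and 626; leaving out each replicate they were 183 to 454, 95 to 266, 101 to 289 and 41 to 272. The week counts of 129, 26, 412 and 1732 (vector then miR-186 clones, 0 then 100 nM) became 67, 0, 101 and 103 on only the groups compared and 229, 338, 1381 and 3194 with the replicate block, and leaving out each replicate 43 to 112, 7 to 128, 60 to 916 and 68 to 2197. Without read counts the precision that depth gives to low genes such as GRHL1 and OVOL1 cannot be stated.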
